A study of Cricetulus griseus with 16 samples.

Results

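The comparison described here set CHO cells held at 42.5 °C for 1 h, a short moderate heat stress, against CHO cells held at 40 °C for 6 h, a long mild one. CHO is a cell line derived from Chinese hamster ovary. All cultures were of 1 line, CHO CCL-61, grown at 37 °C before heating and given no other treatment. Each group had 4 cultures, lettered A to D, so that 8 of the 16 RNA libraries of the series entered the comparison. The other libraries came from 4 unheated cultures at 37 °C and 4 cultures at 40 °C for 1 h, and they are used below to place the levels. All genes were members: 20824 genes were listed, 14305 had at least 1 read in these 8 libraries and 10427 had enough reads to be tested. Temperature and duration both differed between the groups, so their parts in any difference cannot be told apart.

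Heat misfolds proteins in the cytosol, and the heat shock factor HSF1 answers by switching on genes of chaperones, the heat shock proteins, which hold and refold other proteins. The endoplasmic reticulum (ER), where secreted proteins fold, has a response of its own, the unfolded protein response, run by the sensors ATF6, IRE1 (Ern1) and PERK (Eif2ak3). Stress also switches on immediate early genes, whose short-lived transcripts encode factors such as Fos, Jun and Egr1, and through ATF4 the integrated stress response, which serves amino acid supply and redox balance.

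Total counts lay between 10504192 and 13202441 in the libraries at 42.5 °C and between 11153350 and 12700249 at 40 °C for 6 h. Between 12331 and 12573 genes had a read in the former and between 12094 and 12211 in the latter. Replicates differed by more than counting error, with a typical coefficient of variation of the tested genes of 0.0561 as estimated by edgeR. Among 5 mesenchymal markers 4 had enough reads to be tested. Of these, Vim (2303 CPM at 42.5 °C and 2011 CPM at 40 °C for 6 h) and Fn1 (417 and 331 CPM) were abundant. The leukocyte gene Ptprc, the endothelial genes Cdh5 and Kdr and the granulosa genes Foxl2, Fshr and Cyp19a1 had no read in these 8 libraries, and of the granulosa markers only Amh was detected, at 2.69 against 4.84 CPM. Of the 2 leukocyte and 3 endothelial markers listed, 0 had enough reads to be tested. Of 4 epithelial markers looked for, 2 were listed and 1 had enough reads to be tested, with a log2 fold change of 0.096. An epithelial marker was thus expressed as well. Of the marker genes tested, Amh was the only DEG, with a log2 fold change of -0.83 ± 0.22 (SE) and an adjusted p of 0.0058, and it was no longer a DEG without 40 °C 6 h replicate B, at -0.58.

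Levels are given in CPM, the read count scaled to the library total, with edgeR's TMM factors between libraries. A level is therefore a share of the RNA of a culture, and fewer cells with a transcript and less of it per cell cannot be told apart. Differentially expressed genes (DEGs) had a Benjamini-Hochberg adjusted p under 0.05 in edgeR's quasi-likelihood test and a fold change of at least 1.5 in either direction. Log2 fold changes between the treatments are positive where the level was higher at 42.5 °C, and those against 37 °C where it was higher than at 37 °C. Errors of log2 fold changes are SE, with 4 libraries in each group or, against 37 °C, 4 heated libraries and 3 at 37 °C. A value with ± and no unit is a log2 fold change between the treatments, unless 37 °C is named.

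There were 860 DEGs between the treatments (8.25% of the genes tested), 264 (2.53%) higher and 596 (5.72%) lower at 42.5 °C for 1 h. The shares of 2.53% and 5.72% are those to set beside each count of DEGs between the treatments in the lists below. By adjusted p alone 4904 genes (47.0%) differed, of which 2349 (22.5%) were higher and 2555 (24.5%) lower. In 4286 genes (41.1%) the libraries of the groups did not overlap, with those at 42.5 °C above in 1932 (18.5%) and below in 2354 (22.6%). Without the filter on low counts the split was 416 higher and 658 lower. Higher genes were fewer with and without it, and with it 35 of them differed at least 4-fold and 11 at least 8-fold, whereas 8 of the lower ones reached 4-fold and 0 reached 8-fold. Among those 11, Kdf1 had 0 reads at 40 °C for 6 h in all. Akap5, Lrit3 and Aldh8a1 had 2, 9 and 5 there, so their fitted folds are uncertain. The median fold of the higher DEGs was 1.80 and that of the lower ones 1.71. In the cultures at 40 °C for 1 h, which belong to neither group, the median level of the higher DEGs was 6.84 CPM, that of the lower DEGs 13.8 CPM and that of all tested genes 40.0 CPM. The median log2 fold change of all genes tested was 0.00073.

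**Figure D1:**
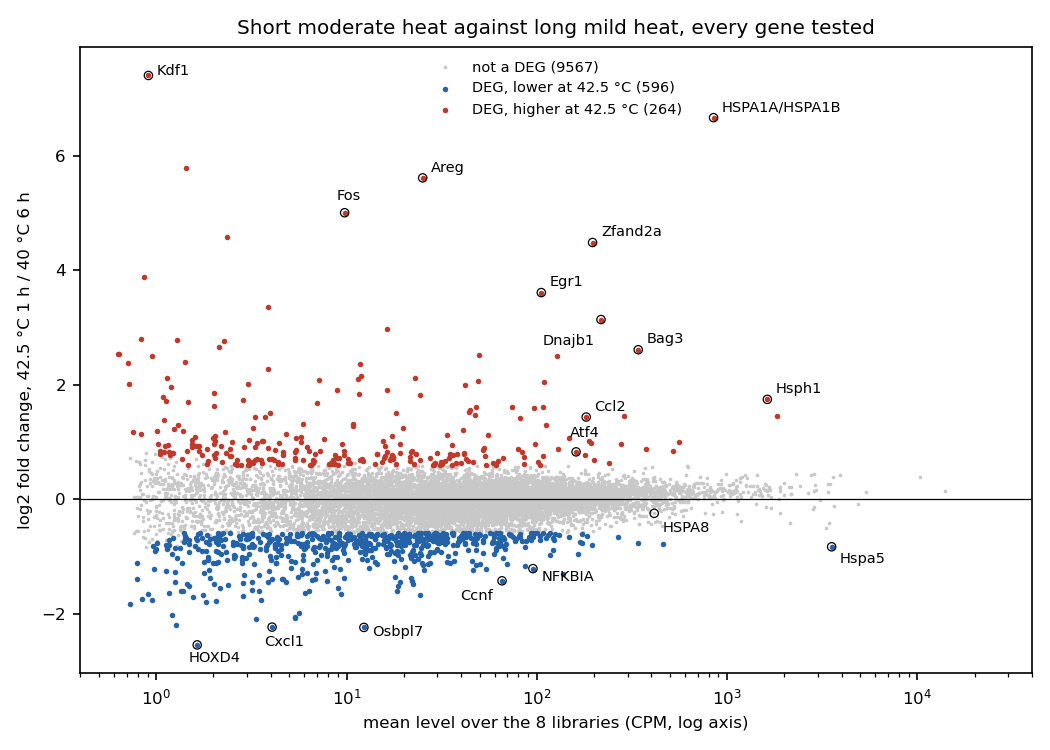
Log2 fold change of each of the 10427 genes tested (vertical axis) against its mean level over the 8 libraries (horizontal axis, CPM, log scale), with the 264 DEGs higher at 42.5 °C in red, the 596 lower ones in blue, and circles around labelled genes. The changes over 4-fold lie mostly on the upper side, and Kdf1, at the top, had no read at 40 °C for 6 h, so that its plotted value depends on the fit.

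Each treatment was also set against the 37 °C libraries A, B and C, and these values are given side by side because both comparisons share those controls. At 42.5 °C there were 786 DEGs (7.51% of the genes tested) against 37 °C, 296 higher (2.83%) and 490 lower (4.68%). At 40 °C for 6 h there were 326 (3.11%), of which 152 were higher (1.45%) and 174 lower (1.66%).

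**Figure D2:**
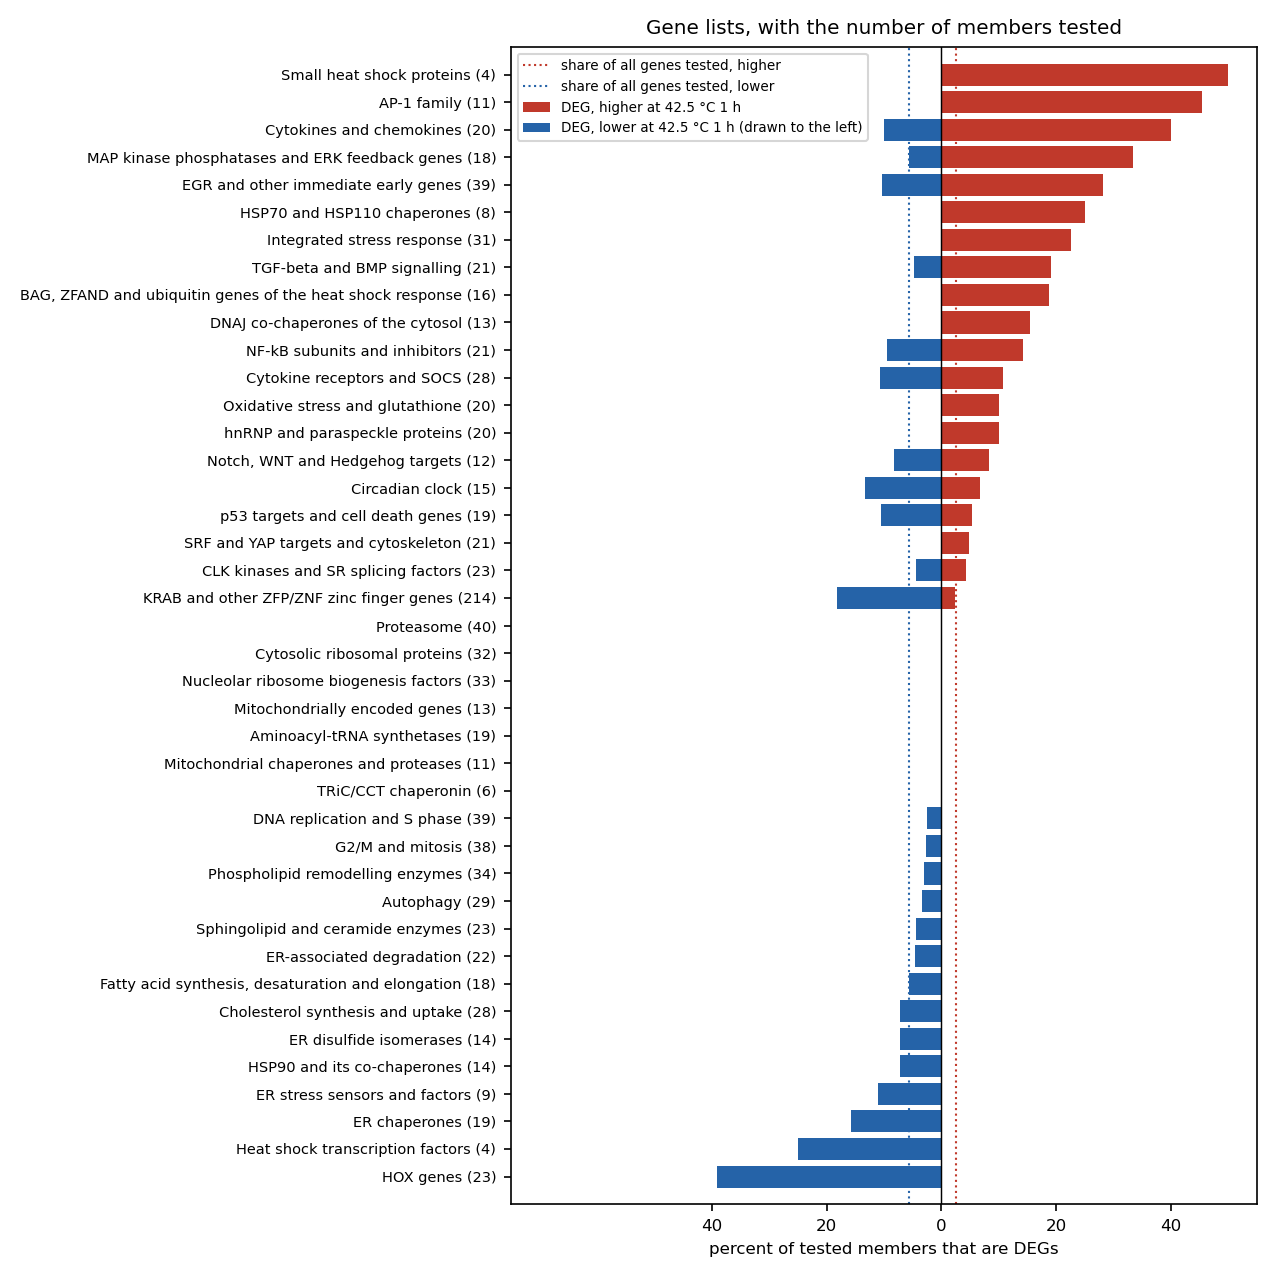
Share of the tested members of each gene list that were DEGs (percent), higher at 42.5 °C for 1 h to the right in red and lower to the left in blue, with the number tested in parentheses. Dotted lines mark the share of all genes tested, 2.53% higher and 5.72% lower. The AP-1, cytokine, small heat shock protein and HSP70 lists extend to the right, and the HOX, heat shock factor, ER chaperone and zinc finger lists mostly or only to the left.

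Cytosolic heat shock proteins differed between the treatments for some members and not for others. Of the 8 HSP70 and HSP110 genes tested 2 were higher at 42.5 °C, as were 2 of 13 cytosolic DNAJ co-chaperones, 2 of 4 small heat shock proteins and 3 of 16 BAG, ZFAND and ubiquitin genes. None of the members of these 4 lists was a DEG in the lower direction. Without any 1 of the 8 libraries the counts of the first 3 lists stayed at 2.

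The stress-inducible HSP70 gene (HSPA1A/HSPA1B, ENSCGRG00001001109) stood at 1605, 1848, 1529.5 and 1741 CPM in replicates A to D at 42.5 °C and at 13.7, 27.2, 14.2 and 11.6 CPM at 40 °C for 6 h. Every library at 42.5 °C was far above every library at 40 °C, where replicate B was the highest. The log2 fold change was 6.66 ± 0.16, a fold of 101, with an adjusted p of 9.7e-15. The cultures at 37 °C stood at 3.55 ± 0.828 CPM (SD, n = 3) and those at 40 °C for 1 h at 31.6 ± 20.2 CPM (SD, n = 4). Thus the transcript was above 37 °C in both treatments, with log2 fold changes of 8.88 ± 0.11 at 42.5 °C and 2.21 ± 0.27 at 40 °C for 6 h. The HSP70 copies are nearly identical in sequence, and how their shared reads were counted is not given in the sources used here.

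Dnajb1, the J-domain partner that hands substrates to HSP70, stood at 339, 459, 241 and 522 CPM at 42.5 °C and at 39.8, 54.6, 41.7 and 42.6 CPM at 40 °C for 6 h, and the groups did not overlap (log2 fold change 3.14 ± 0.18, adjusted p 8.6e-10). Hsph1, the HSP110 nucleotide exchange factor of HSP70, stood at 1817, 2735, 1718 and 3735 CPM against 595, 1071, 705 and 638 CPM (1.74 ± 0.20, 3.1e-06). Both had their highest value at 42.5 °C in replicate D and at 40 °C in replicate B. Bag3, a co-chaperone that links HSP70 to autophagy, stood at 463, 625, 446 and 809 CPM against 96.5, 96.4, 97.3 and 96.6 CPM, a fold of 6.10 (adjusted p 3.6e-10). Zfand2a, an arsenite- and heat-inducible protein of the proteasome, stood at 278, 405, 260.3 and 560.4 CPM against 13.7, 17.3, 17.5 and 19.0 CPM, a fold of 22.3 (adjusted p 6.9e-11). At 40 °C for 6 h these last genes were near their levels at 37 °C, 88.1 CPM for Bag3 and 19.0 CPM for Zfand2a, and at 40 °C for 1 h they stood at 159 and 63.5 CPM.

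Among the small heat shock proteins, which bind unfolding proteins without ATP, Hspb1 stood at 353, 518, 263 and 551 CPM at 42.5 °C and 111, 206, 207 and 100.02 CPM at 40 °C for 6 h (log2 fold change 1.44 ± 0.22, adjusted p 5.6e-05). Hspb8, the partner of Bag3, differed by 0.88 ± 0.12 (adjusted p 2.4e-05). Hspb1 was a DEG against 37 °C in both treatments, with 2.98 ± 0.20 at 42.5 °C and 1.53 ± 0.20 at 40 °C for 6 h. The remaining DEGs of these lists were Dnajb4, at 0.82 ± 0.13, and Dedd2, a death effector domain protein, at 0.63 ± 0.14. Dedd2 was not a DEG without 40 °C 6 h replicate D (0.56), without 42.5 °C replicate D (0.48) or with scaling to library size only (0.58).

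**Figure D3:**
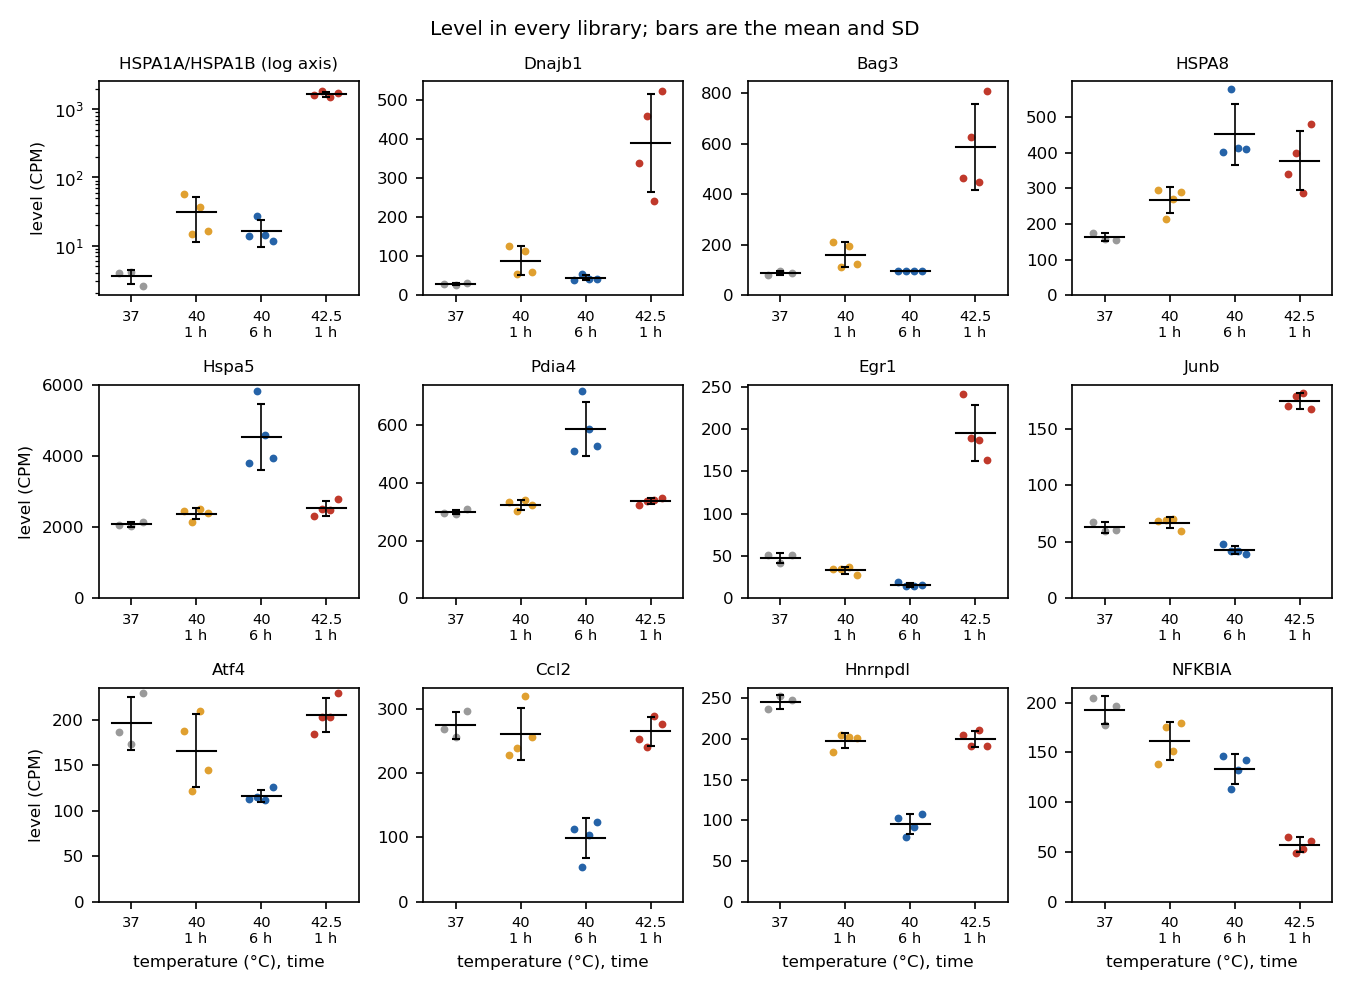
Level of 12 genes in every library (CPM, log axis for HSPA1A/HSPA1B and linear axes from 0 for the others) at 37 °C (3 libraries) and, with 4 libraries each, at 40 °C (1 h, then 6 h) and at 42.5 °C, with the mean and SD. HSPA1A/HSPA1B, Dnajb1, Bag3, Egr1 and Junb are highest at 42.5 °C, Hspa5 and Pdia4 are highest at 40 °C for 6 h, Atf4, Ccl2 and Hnrnpdl are lowest at 40 °C for 6 h, and NFKBIA is lowest at 42.5 °C.

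Other chaperones of the same response were not DEGs between the treatments, and of these HSPA8 and Dnaja1 were above 37 °C in both. HSPA8, the constitutive HSP70, stood at 339.9, 399, 288 and 481 CPM at 42.5 °C and 402, 578, 414 and 410.3 CPM at 40 °C for 6 h, so the groups overlapped. Its log2 fold change was -0.25 with a 95% interval of -0.51 to 0.012 (adjusted p 0.11), whereas against 37 °C it was 1.23 ± 0.12 and 1.47 ± 0.10, respectively. Dnaja1, another J-domain partner of HSP70, had an interval of -0.018 to 0.41 (adjusted p 0.12) and stood 0.94 and 0.74 above 37 °C on the log2 scale. Hsp90ab1, the constitutive HSP90, had an interval of -0.22 to 0.041 (adjusted p 0.24) at 4682 and 5019.7 CPM. For Stip1, which bridges HSP70 and HSP90, the interval was -0.49 to -0.0087 (adjusted p 0.082). Serpinh1, the collagen chaperone, differed with an adjusted p of 0.037 but below the fold threshold, at 0.36 ± 0.14, and its groups overlapped. These intervals bound the differences and do not show that the levels were equal.

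Among the 14 genes of HSP90 and its co-chaperones tested, 10 log2 fold changes were below 0, with a median of -0.13. The 1 DEG was Tsc1, a growth regulator that also binds HSP90, at -0.60 ± 0.075, which fell short of the fold threshold without 40 °C 6 h replicate C (-0.55), 42.5 °C replicate C (-0.58) or 42.5 °C replicate D (-0.58). At 40 °C for 6 h, 12 of these 14 genes were higher than at 37 °C by adjusted p alone, against 14.7% of all genes tested. At 42.5 °C it was 9 of 14, against 20.8% of all genes tested. Of the heat shock factors, Hsf1, the main one, stood at 104, 103, 108 and 99.8 CPM at 42.5 °C and 132, 124, 118 and 122 CPM at 40 °C for 6 h, lower in every library but by less than 1.5-fold (-0.25 ± 0.048, adjusted p 0.00041). Hsf4, known from the lens, was a DEG at -1.84 ± 0.33 (adjusted p 0.00027), but between 2 and 5 reads stood behind its level in each library at 42.5 °C. HSPD1, the mitochondrial HSP60, was at 2643 against 1955 CPM (0.44 ± 0.085). Of the 11 mitochondrial chaperones and proteases and the 6 TRiC chaperonin subunits tested, 0 were DEGs, and by adjusted p alone 2 and 3, respectively, were higher, against 22.5% of all genes tested.

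The listed chaperones of the ER were mostly on the other side. Among the 19 tested 11 were lower at 42.5 °C than at 40 °C for 6 h by adjusted p alone and 0 were higher. The shares of all genes tested were 24.5% and 22.5%. Serpinh1, given above, is also a chaperone of the ER but was not on this list. It was higher at 42.5 °C by adjusted p. In 11 members of the list every library at 42.5 °C was below every library at 40 °C for 6 h, as in 22.6% of all genes. The median log2 fold change of the list was -0.34, and 3 members passed the fold threshold, Hspa5, Manf and Sdf2l1. Hspa5 (BiP), the ER form of HSP70, stood at 2309, 2525, 2499.8 and 2809 CPM at 42.5 °C and 3814, 5831, 4601 and 3951 CPM at 40 °C for 6 h. No library overlapped, and the log2 fold change was -0.83 ± 0.098 (adjusted p 3.3e-06). Manf, a secreted ER stress protein, stood at 124, 123, 127 and 138 CPM against 196, 266, 211 and 200.4 CPM (-0.76 ± 0.077, adjusted p 6.7e-07). Pdia4, of the separate list of disulfide isomerases, stood at 324, 338, 341 and 346 CPM against 511, 718, 587 and 527 CPM (-0.79 ± 0.077, adjusted p 5e-07). In Hspa5, Manf and Pdia4 alike replicate B was the highest of the libraries at 40 °C for 6 h.

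Against 37 °C, 0 of the 19 ER chaperones were DEGs at 42.5 °C and 4 were at 40 °C for 6 h, all higher. Higher DEGs made up 2.83% of all genes at 42.5 °C and 1.45% at 40 °C for 6 h. Hspa5 changed by 0.29 ± 0.054 at 42.5 °C and by 1.13 ± 0.10 at 40 °C for 6 h. The values for Pdia4 were 0.18 ± 0.039 and 0.97 ± 0.086, those for Manf 0.054 ± 0.049 and 0.81 ± 0.083, and those for Hsp90b1 (GRP94), the ER form of HSP90, 0.25 ± 0.046 and 0.75 ± 0.074. Calr (calreticulin), Hyou1 and Dnajc3, further chaperones of the ER, were lower at 42.5 °C than at 40 °C for 6 h, with -0.42, -0.38 and -0.35 on the log2 scale, all under the fold threshold. Sdf2l1, a BiP cofactor, was a DEG at -0.59 ± 0.089 that rested on replicate B at 40 °C for 6 h, without which it was -0.45. It also fell just short of the threshold without 42.5 °C replicate A, B or D, with DESeq2 or its size factors, and in 1 fit over all groups (-0.58 in each case).

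Xbp1, the transcription factor that IRE1 activates by splicing, stood at 35.0, 36.7, 31.2 and 35.5 CPM at 42.5 °C and 44.3, 52.8, 57.2 and 58.1 CPM at 40 °C for 6 h (-0.61 ± 0.08, adjusted p 1.1e-05), and it missed the fold threshold without 40 °C 6 h replicate C or D or 42.5 °C replicate C (all -0.57). Of the sensors, Atf6 was 0.32 and Ern1 0.41 higher at 42.5 °C on the log2 scale, with adjusted p of 0.00011 and 0.002, and for Eif2ak3 the interval was -0.12 to 0.11 (adjusted p 0.91). Of 22 genes of ER-associated degradation, 1 was a DEG, Syvn1, the ubiquitin ligase of that pathway, at 15.8, 13.6, 14.8 and 14.5 CPM against 28.3, 24.1, 27.8 and 23.8 CPM (-0.81 ± 0.087, adjusted p 1.3e-06). Syvn1 stood close to its 37 °C level at 40 °C for 6 h (26.0 and 25.6 CPM) and below it at 42.5 °C. Of 14 ER disulfide isomerases, Pdia4 was the 1 DEG, and the count was 2 without 40 °C 6 h replicate A, C or D or without 42.5 °C replicate B or D.

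Of the 31 genes of the integrated stress response tested, 7 were higher at 42.5 °C and 0 lower. Without 40 °C 6 h replicate C, the pseudokinase Trib3 became a lower DEG, at -0.59. Chac1, which degrades glutathione, stood at 23.7, 41.1, 26.5 and 57.7 CPM at 42.5 °C and 10.4, 9.04, 7.02 and 8.44 CPM at 40 °C for 6 h (2.12 ± 0.23, adjusted p 1.3e-06), with 9.31 CPM at 37 °C. Atf3, a stress transcription factor, stood at 8.39, 10.8, 10.2 and 16.9 CPM against 2.55, 3.81, 2.29 and 2.42 CPM (2.08 ± 0.22, adjusted p 9.5e-07), with 4.27 CPM at 37 °C. Neither gene overlapped between the groups.

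Atf4 itself, the central transcription factor of that response, stood at 184, 203, 204 and 229 CPM at 42.5 °C and 113, 115, 112 and 126 CPM at 40 °C for 6 h, again without overlap (0.82 ± 0.06, adjusted p 1.5e-08). Here the level at 42.5 °C was close to the 196 ± 29.0 CPM (SD, n = 3) at 37 °C, with a log2 fold change against 37 °C of 0.079 ± 0.081 (adjusted p 0.45), and the level at 40 °C for 6 h lay below it, at -0.75 ± 0.074 (adjusted p 2.7e-06). Slc7a11, the cystine transporter, Slc7a1, a cationic amino acid transporter, and Sesn2, a nutrient sensor, were higher at 42.5 °C by 0.89, 0.75 and 0.78 on the log2 scale. Their changes against 37 °C were -1.03, -0.56 and -0.72 at 40 °C for 6 h and -0.14, 0.20 and 0.058 at 42.5 °C. The seventh DEG was Ppp1r15a (GADD34), which reverses the block on translation, at 0.66 ± 0.075. Ddit3 (CHOP), a death-linked factor of the response, was not called, with an interval of -0.43 to 0.37. Of the 19 aminoacyl-tRNA synthetases tested 0 were DEGs, with a list median of 0.16. By adjusted p alone 11 were higher and 1 lower, against 22.5% and 24.5% of all genes tested.

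**Figure D4:**
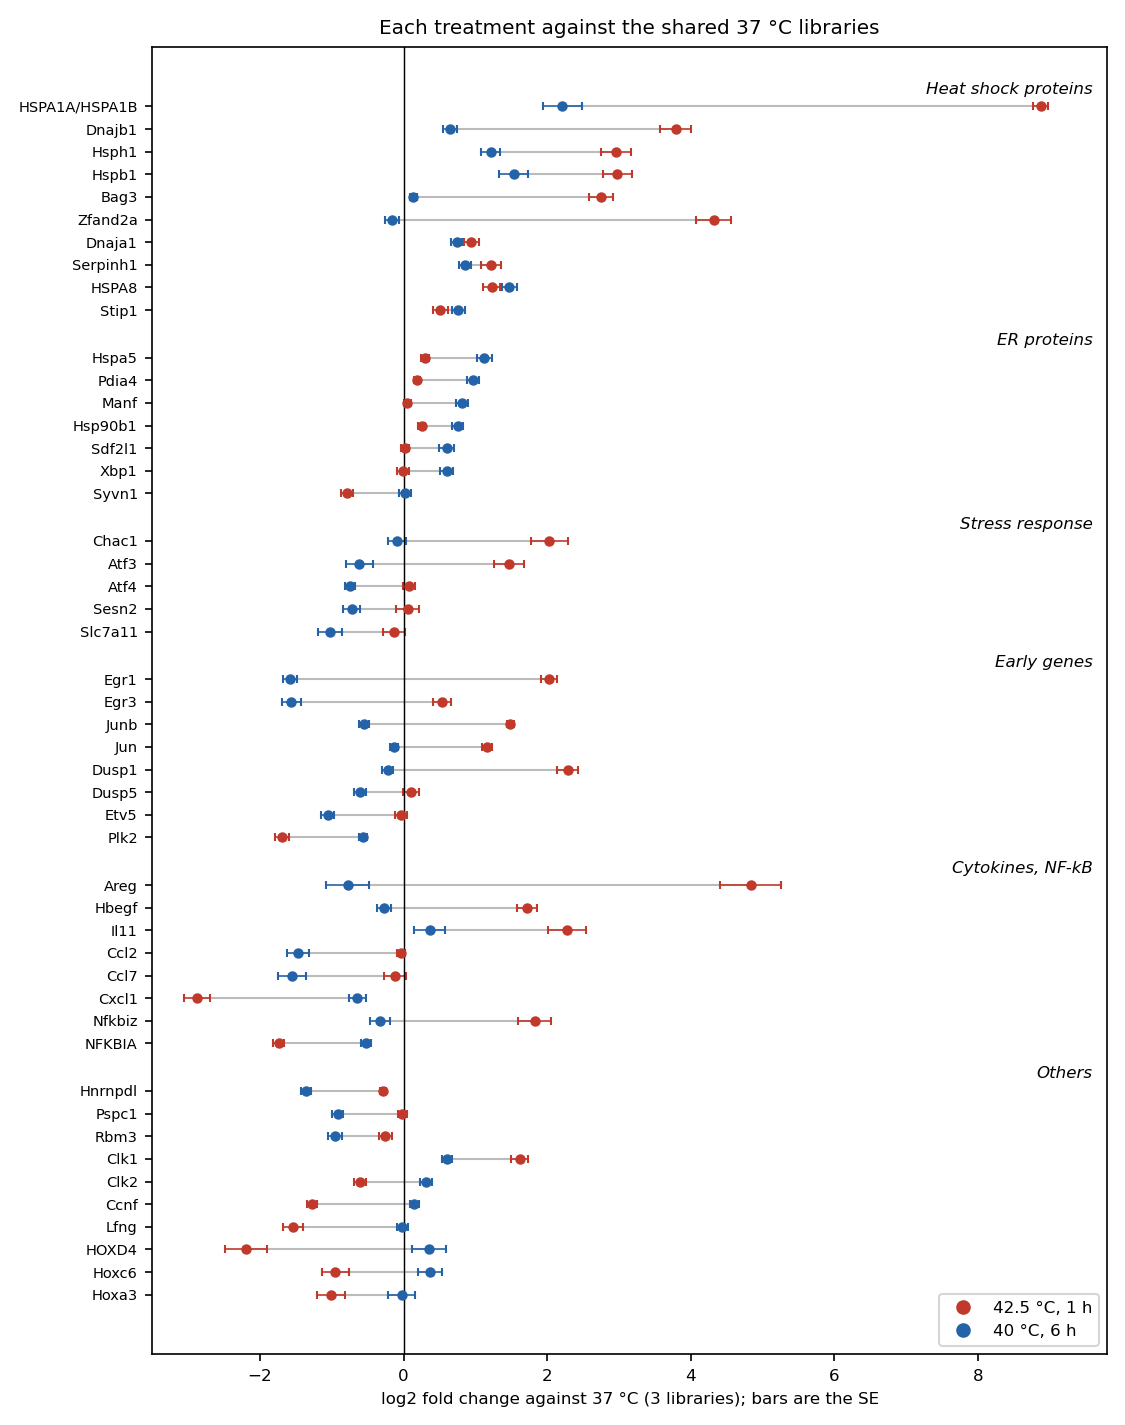
Log2 fold change against 37 °C (horizontal axis, bars are the SE) of 48 named genes at 42.5 °C for 1 h (red) and at 40 °C for 6 h (blue), in groups from top to bottom. HSPA8 and Dnaja1 lie to the right of 0 in both treatments, Hspa5, Pdia4 and Manf lie further right at 40 °C for 6 h, and Egr1, Ccl2, Atf4, Etv5 and Hnrnpdl lie left of 0 at 40 °C for 6 h. Both treatments share the same 3 control libraries.

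Immediate early genes took 3 of the 12 largest rises, those of Fos, Egr1 and Egr2. Of the 11 AP-1 genes tested 5 were higher at 42.5 °C and 0 lower (1 lower without 42.5 °C replicate A), with a list median of 0.44. Of 39 EGR and other immediate early genes 11 were higher and 4 lower, with a median of 0.18. Fos stood at 18.3, 21.2, 15.6 and 20.7 CPM at 42.5 °C and at 0.44, 1.19, 0.394 and 0.313 CPM at 40 °C for 6 h, where between 4 and 15 reads per library stood behind it. The groups did not overlap, and the log2 fold change was 5.00 ± 0.22 (adjusted p 4.3e-11). Junb and Jun, partners of Fos in AP-1, differed by 2.04 ± 0.059 and 1.29 ± 0.063.

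Egr1, a zinc finger factor of the ERK pathway, stood at 241, 189, 187 and 163 CPM at 42.5 °C and 19.4, 14.2, 14.8 and 16.3 CPM at 40 °C for 6 h (3.61 ± 0.11, adjusted p 2.1e-13). The cultures at 37 °C lay between them, at 51.6, 41.5 and 51.5 CPM, so that Egr1 was higher than at 37 °C in one treatment (2.03 ± 0.11) and lower in the other (-1.58 ± 0.1). Its relatives Egr2 and Egr3 differed by 3.35 ± 0.23 and 2.09 ± 0.14. Egr3 stood at 18.5 CPM at 42.5 °C, 4.39 CPM at 40 °C for 6 h and 12.97 CPM at 37 °C. Csrnp1, an AXIN1-induced nuclear protein, Nuak2, an AMPK-related kinase, and Sgk1, a serum-induced kinase, were higher by 2.52 ± 0.085, 2.36 ± 0.17 and 1.60 ± 0.11. Smaller rises were those of Btg2 (1.43), the orphan receptor Nr4a1 (1.30), Tiparp (0.98), Klf10 (0.71) and Klf5 (0.65). Maff and Mafk, small MAF partners of AP-1, differed by 0.96 and 0.59, and Mafk lost its call without 40 °C 6 h replicate B (0.57) or C (0.55), without 42.5 °C replicate A (0.57), B (0.58) or D (0.58), and with scaling to library size only (0.53). Mafk also lost it with upper-quartile scaling (0.58) and with no filter on low counts (0.58).

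The list also had falls. Plk2, a polo-like kinase induced by serum, stood at 36.1, 26.6, 38.2 and 25.3 CPM at 42.5 °C and 70.2, 64.5, 68.1 and 73.9 CPM at 40 °C for 6 h, with 103 CPM at 37 °C (-1.13 ± 0.10, adjusted p 1.7e-07). The small GTPase Rhob was lower, at -0.79, the growth arrest gene Gadd45b at -0.71 and the antiproliferative gene Tob2 at -0.65 on the log2 scale. Gadd45b was not a DEG without 40 °C 6 h replicate A (-0.58), and Tob2 was not one without 42.5 °C replicate D (-0.52).

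Of the 18 genes tested that feed back on MAP kinases, 6 were higher and 1 lower, with a list median of 0.42. Dusp1, the phosphatase of p38 and JNK, stood at 167, 241, 182 and 276 CPM at 42.5 °C and 34.3, 40.7, 39.0 and 39.5 CPM at 40 °C for 6 h (2.50 ± 0.12, adjusted p 1.7e-10). Dusp8, another phosphatase of these kinases, Phlda1 and Errfi1, an inhibitor of the EGF receptor, were higher by 0.97, 1.24 and 0.80. Etv5, a transcriptional target of ERK, and Dusp5, a nuclear ERK phosphatase, were close to their 37 °C levels at 42.5 °C (-0.042 and 0.10) and below them at 40 °C for 6 h (-1.06 and -0.61). Dusp10 was the 1 lower gene, at -0.73 ± 0.16, and was not a DEG without 42.5 °C replicate C (-0.55).

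Of 20 cytokines and chemokines tested, 8 were higher and 2 lower at 42.5 °C, with a median of 0.49. Areg (amphiregulin), a ligand of the EGF receptor, stood at 30.5, 56.0, 29.5 and 81.0 CPM at 42.5 °C and at 1.41, 0.872, 1.104 and 0.703 CPM at 40 °C for 6 h, with no overlap (5.61 ± 0.39, adjusted p 9.3e-09). Hbegf, a second ligand of that receptor, stood at 53.9, 72.7, 56.8 and 85.2 CPM against 17.4, 15.5, 17.9 and 17.6 CPM (1.99 ± 0.12). Il11 and Il6, cytokines of the gp130 family, were higher by 1.91 ± 0.24 and 1.08 ± 0.14, Vegfa, the vascular growth factor, by 0.85 ± 0.10, and Il18 by 0.77 ± 0.13.

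The chemokines Ccl2 and Ccl7, which attract monocytes, completed the 8 higher genes. Ccl2 stood at 253, 240.4, 289 and 277 CPM at 42.5 °C and 113, 54.6, 103 and 124 CPM at 40 °C for 6 h (1.43 ± 0.15, adjusted p 1.1e-06). At 37 °C it stood at 269, 256 and 297 CPM, and at 40 °C for 1 h at 229, 239, 319 and 257 CPM, so that the libraries at 40 °C for 6 h were the low ones, replicate B the lowest. The log2 fold change against 37 °C was -0.036 ± 0.06 at 42.5 °C and -1.47 ± 0.16 at 40 °C for 6 h. For Ccl7 these values were -0.12 ± 0.15 and -1.56 ± 0.19. Cxcl1, a neutrophil chemokine, was the largest fall of the list, from 7.49, 6.90, 5.60 and 6.95 CPM at 40 °C for 6 h to 1.25, 1.56, 0.868 and 1.88 CPM at 42.5 °C (-2.24 ± 0.19, adjusted p 1.2e-07), with 10.5 CPM at 37 °C. Chemokines of this family are similar in sequence, and how reads shared by them were counted is not given in the sources used here. Cxcl12, a stromal chemokine, was lower, at -0.98 on the log2 scale, with 3.01 against 6.04 CPM and 3.71 CPM at 37 °C.

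Of the 21 NF-kB genes tested 3 were higher and 2 lower, against 2.53% and 5.72% of all genes tested. NFKBIA (IkBα), the inhibitor that holds NF-kB in the cytosol and is itself an NF-kB target, stood at 65.4, 49.0, 52.6 and 61.3 CPM at 42.5 °C and 147, 113, 133 and 143 CPM at 40 °C for 6 h (-1.22 ± 0.086, adjusted p 1.2e-08), with 193 CPM at 37 °C. Other genes of the same pathway moved the opposite way: Nfkbiz, the nuclear IkBζ, was higher by 2.15 ± 0.21 and Tnfaip3 (A20), a ubiquitin-editing inhibitor, by 1.60 ± 0.14. Traf6, a ubiquitin ligase upstream of NF-kB, was higher by 0.94 ± 0.12, and Birc2 (cIAP1) lower, at -0.65 on the log2 scale. The subunit Rela had an interval of 0.0062 to 0.18 (adjusted p 0.073), and Nfkb1 was higher by 0.30 on the log2 scale, below the threshold.

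Of the 28 cytokine receptors and SOCS genes 3 were higher and 3 lower, against 2.53% and 5.72% of all genes tested. The lower ones were the receptors of tumour necrosis factor Tnfrsf1a (-0.77 ± 0.076) and Tnfrsf1b (-0.89 ± 0.11) and the Toll-like receptor Tlr6 (-2.21 ± 0.41), whose level of 0.45 against 2.10 CPM was low in both groups. Higher were Vcam1, an adhesion molecule (1.01), Socs3, a brake on gp130 signalling (0.86), and Ptgs2 (COX-2, 0.72), which was not a DEG without 42.5 °C replicate D (0.49). Of 21 genes of TGF-beta and BMP signalling, 4 were higher and 1 lower. Smad7, the inhibitory SMAD, stood at 27.6, 33.5, 28.5 and 26.8 CPM at 42.5 °C and 3.70, 4.12, 4.18 and 2.89 CPM at 40 °C for 6 h (2.97 ± 0.12, adjusted p 1e-11). Skil (SnoN), a repressor of SMADs, was higher by 2.06 ± 0.13, Id1 by 1.52 ± 0.13 and Id2 by 0.66, while the repressor Tgif1 was lower, at -0.65.

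Some RNA-binding proteins had their lowest levels at 40 °C for 6 h. Of 20 hnRNP and paraspeckle genes 12 were higher at 42.5 °C by adjusted p alone and 0 lower, against 22.5% and 24.5% of all genes, and 2 were DEGs. Against 37 °C, 8 members were lower and 4 higher at 40 °C for 6 h by adjusted p alone, against 14.8% and 14.7% of all genes. As lower DEGs there were 2, against 1.66% of all genes. Hnrnpdl, an hnRNP, stood at 204, 192, 211 and 192 CPM at 42.5 °C, 103, 79.9, 91.2 and 108 CPM at 40 °C for 6 h and 236, 252 and 248 CPM at 37 °C. The libraries at 40 °C for 6 h were the lowest of these, and the log2 fold change between the treatments was 1.07 ± 0.072 (adjusted p 6.6e-09). Pspc1, a paraspeckle protein, differed by 0.89 ± 0.071, with 68.8, 37.2 and 70.4 CPM in the same order. Rbm3, an RNA-binding protein that rises in the cold, stood at 63.3, 50.3, 52.0 and 44.4 CPM at 42.5 °C and 33.9, 32.5, 38.5 and 25.01 CPM at 40 °C for 6 h (0.70 ± 0.11, adjusted p 8.5e-05), and at 63.1 CPM at 37 °C. Its log2 fold change against 37 °C was -0.25 at 42.5 °C and -0.96 in the long treatment. For CIRBP, the other cold-inducible protein, the interval between the treatments was -0.017 to 0.28 (adjusted p 0.14).

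Of the 23 CLK kinases and SR splicing factors 1 was higher and 1 lower, both kinases of SR proteins. Of all genes tested 2.53% were higher and 5.72% lower DEGs, so the counts of this list are near those shares. Clk1 stood at 219, 277, 199 and 311 CPM at 42.5 °C and 109, 135, 128 and 129.8 CPM at 40 °C for 6 h (1.01 ± 0.10, adjusted p 8.8e-07). Clk2 stood at 18.9, 18.0, 17.0 and 21.6 CPM against 32.3, 40.9, 37.9 and 33.8 CPM (-0.93 ± 0.091, adjusted p 4.7e-07). The kinases differed in opposite directions, and in neither did the groups overlap. Clk1 was also above its 37 °C level of 82.7 CPM at 40 °C for 1 h, with 225, 147, 225 and 179 CPM.

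Of the cell cycle lists a single member each passed the fold threshold, a share under that of lower DEGs among all genes. Ccnf (cyclin F), a ubiquitin ligase subunit, stood at 40.9, 35.7, 31.2 and 33.7 CPM at 42.5 °C and 93.7, 108, 91.3 and 90.2 CPM at 40 °C for 6 h, with no overlap (-1.43 ± 0.077, adjusted p 4.5e-10). It was the 1 DEG of 38 genes of G2/M and mitosis, of which 19 were lower by adjusted p alone and 5 higher, against 24.5% and 22.5% of all genes tested, with a median of -0.11. Plk1, the mitotic kinase, was among the 19, at -0.26 ± 0.043. Of 39 genes of DNA replication and S phase, Ccne2 (cyclin E2) was the 1 DEG, at 25.1, 26.0, 25.5 and 25.1 CPM against 44.5, 52.2, 50.1 and 50.1 CPM (-0.95 ± 0.066), and by adjusted p alone 11 members were higher and 7 lower. Of 12 targets of Notch, WNT and Hedgehog signalling 1 was higher and 1 lower, against 2.53% and 5.72% of all genes tested. Both were of the Notch pathway: Hes1, its target factor, at 1.81 ± 0.10 and Lfng, a glycosyltransferase of Notch receptors, at -1.53 ± 0.13. Of 19 p53 target and cell death genes, the survival factor Mcl1 was higher (0.96 ± 0.071) while its opponent Bbc3 (PUMA) and the repressor Bcl6 were lower (-1.07 ± 0.20 and -0.69 ± 0.14). That list had 2 higher members in place of 1 without 40 °C 6 h replicate A, B or C or without 42.5 °C replicate A or D. Cdkn1a (p21), a p53 target, was not a DEG, at 0.44 ± 0.11. In the circadian clock list of 15 genes, Bhlhe40 was higher (1.67 ± 0.15), and Per1 and Dbp were lower (-0.72 ± 0.11 and -0.70 ± 0.13).

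HOX genes, which give cells their position along the body axis, lay on 1 side. All 23 HOX genes tested had log2 fold changes below 0, and 9 were DEGs, with a list median of -0.46. The signs stayed under each of the 4 other scalings tried, but a scaling shifts all genes nearly together. Under these the median of all genes was at most 0.0059, and Hoxa4, the HOX gene nearest 0, was at -0.025. The signs could therefore hardly have changed. The scalings kept the same genes, and the filter let a gene in through its reads in either group alone. HOXD4 entered through its level at 40 °C for 6 h. With at least 10 reads in every library, 5 HOX genes were lower DEGs. Of the other 16 HOX genes listed, 0 had enough reads to be tested. HOXD4 stood at 0.447, 0.682, 0.578 and 0.235 CPM at 42.5 °C and 1.59, 3.25, 2.84 and 3.52 CPM at 40 °C for 6 h (-2.55 ± 0.33, adjusted p 9.4e-06), Hoxc6 at 1.43, 1.75, 1.74 and 1.64 CPM against 3.70, 3.89, 5.13 and 3.75 CPM (-1.32 ± 0.19), and Hoxa3 at 1.79, 1.56, 1.93 and 1.56 CPM against 3.52, 2.62, 3.39 and 4.06 CPM (-0.98 ± 0.19). In these 3 genes every library at 42.5 °C was below every library at 40 °C for 6 h. Hoxd3, Hoxb5 and Hoxb4 were lower, at -1.44, -1.03 and -0.82, and Hoxa6, Hoxa5 and Hoxc5 at -0.79, -0.72 and -0.69 on the log2 scale. Against 37 °C, 9 of 24 HOX genes tested were lower and 0 higher at 42.5 °C, and 1 was lower and 1 higher of 25 at 40 °C for 6 h. Among all genes 4.68% were lower and 2.83% higher DEGs at 42.5 °C, and 1.66% and 1.45% at 40 °C for 6 h. The 9 DEGs belonged to paralog groups 3 to 6, of which with group 2 14 genes were tested, and of 9 genes of groups 7 to 10 0 were DEGs. The median level at 40 °C for 1 h was 2.18 CPM in the former groups and 9.05 CPM in the latter, so the position in the cluster moved with the level, and its part was not tested.

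The calls of low HOX genes depended on single libraries and on the test. The count of 9 lay between 7 and 10 when each library was left out, with 7 without 40 °C 6 h replicate B. Hoxa5 lost its call without 40 °C 6 h replicate B (-0.62) or C (-0.69) or 42.5 °C replicate B (-0.66) or C (-0.62). Hoxa6 lost its call without 40 °C 6 h replicate A (-0.71) or B (-0.73) or 42.5 °C replicate D (-0.67). With DESeq2 Hoxa5 (-0.72) and Hoxa6 (-0.79) lost their calls as well. HOX clusters also hold overlapping and antisense transcripts, and whether strand was used in counting is not given in the sources used here.

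**Figure D5:**
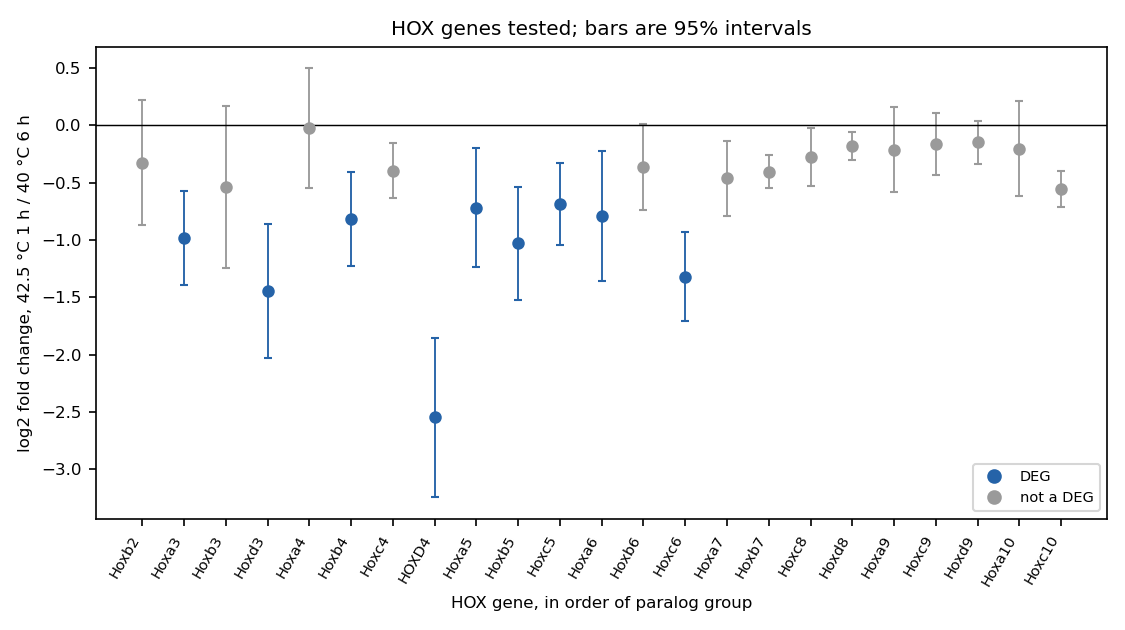
Log2 fold change, 42.5 °C for 1 h against 40 °C for 6 h, of the 23 HOX genes tested with 95% intervals, ordered along the horizontal axis by paralog group and then cluster, with DEGs in blue and the other genes in grey. All points lie below 0, and the 9 DEGs lie among the genes of groups 3 to 6.

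The list of ZFP, ZNF, ZKSCAN and ZSCAN genes, mostly zinc finger repressors, also had more falls than rises. Of 214 tested, 39 were lower and 5 higher at 42.5 °C, with a list median of -0.19, and 140 log2 fold changes were below 0. By adjusted p alone 80 were lower and 28 higher, against 24.5% and 22.5% of all genes tested. The falls were led by Zfp551, at 2.41, 1.36, 1.45 and 1.17 CPM against 6.17, 5.71, 5.52 and 4.61 CPM (-1.77 ± 0.20), Zscan2 (-1.75 ± 0.36), Zfp784 (-1.61 ± 0.35) and Zfp324 (-1.37 ± 0.22). Zkscan14 was the largest rise, at 15.6, 20.5, 15.5 and 20.8 CPM against 5.28, 5.23, 5.52 and 4.45 CPM (1.83 ± 0.13), followed by Zfp84 (1.07). Against 37 °C, 31 of 214 were lower and 16 higher at 42.5 °C, and 2 of 216 were lower and 10 higher at 40 °C for 6 h. The shares of all genes were 4.68% lower and 2.83% higher at 42.5 °C, and 1.66% and 1.45% at 40 °C for 6 h. Members of this family resemble each other, so shared reads may make single members uncertain.

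Of 28 genes of cholesterol synthesis and uptake 14 were lower at 42.5 °C by adjusted p alone and 3 higher, against 24.5% and 22.5% of all genes tested, and 23 log2 fold changes were below 0, with a median of -0.20. The DEGs were Insig1, which retains the SREBP factors in the ER, at 18.4, 17.0, 23.5 and 22.4 CPM against 28.7, 29.8, 35.8 and 38.7 CPM (-0.70 ± 0.11, adjusted p 6.1e-05), and Tm7sf2, a sterol reductase, at -2.03 ± 0.34 with 0.469 against 1.96 CPM. The synthase Hmgcs1 (-0.34 ± 0.081) and the epoxidase Sqle (-0.33 ± 0.049) were lower below the fold threshold. Of 18 genes of fatty acid synthesis, Scd2, a desaturase, was the 1 DEG, at 86.3, 92.9, 106 and 106 CPM against 140.2, 136, 157 and 168 CPM (-0.61 ± 0.072), and was not one without 40 °C 6 h replicate D (-0.55) or 42.5 °C replicate A (-0.55). Of 23 sphingolipid enzymes the sphingomyelinase Smpd3 was the 1 DEG, at -0.60 ± 0.22, and it was lost without 40 °C 6 h replicate B (-0.50) or C (-0.59) or 42.5 °C replicate C (-0.43) or D (-0.57). It was also lost with DESeq2 (-0.59). Of 34 phospholipid remodelling enzymes Lpcat1, an acyltransferase, was the 1 DEG (-0.77 ± 0.14), and the count was 2 without 40 °C 6 h replicate A or D or 42.5 °C replicate C.

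Housekeeping lists differed below the fold threshold. Of the 13 protein-coding genes of the mitochondrial genome 10 were higher at 42.5 °C by adjusted p alone, against 22.5% of all genes tested. None was a DEG, and the median was 0.38. COX1, a subunit of cytochrome oxidase, stood at 11379.9, 11102, 12086 and 11885 CPM at 42.5 °C and 7494, 10424, 9537 and 8399 CPM at 40 °C for 6 h (0.38 ± 0.074), and ATP8, of ATP synthase, differed by 0.57 ± 0.098. These 13 genes took between 3.55% and 3.80% of all counts at 42.5 °C and between 2.69% and 3.54% at 40 °C for 6 h. Their count of DEGs became 1 without 40 °C 6 h replicate B or C or 42.5 °C replicate C or D. Against 37 °C, 9 of the 13 were DEGs at 42.5 °C and 2 at 40 °C for 6 h, all higher. The shares of higher DEGs among all genes were 2.83% and 1.45%. In the 37 °C libraries A, B and C the 13 genes took 3.06%, 2.23% and 2.31% of counts. In library D, which was left out, they took 3.31%. Of the 32 cytosolic ribosomal proteins tested 23 were higher by adjusted p alone and 1 lower, with a median of 0.15 that ranged from 0.096 to 0.16 over the scalings, against 22.5% of all genes higher and 24.5% lower. Proteasome genes had 11 of 40 higher and 1 lower by adjusted p alone, with a median of 0.094, and nucleolar ribosome biogenesis factors 13 of 33 higher and 8 lower, so the share of higher proteasome genes was near the 22.5% of all genes. None of these ribosomal, proteasome and nucleolar genes was a DEG.

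Of the 20 oxidative stress genes, Srxn1 (sulfiredoxin), at 301, 398, 310.1 and 456 CPM against 188, 209.5, 183 and 181 CPM (0.95 ± 0.098), and Txnip (0.61 ± 0.13), whose groups overlapped, were higher. Txnip was not a DEG without 40 °C 6 h replicate B (0.55) or 42.5 °C replicate B (0.49) or D (0.54). Hmox1, the heme oxygenase of the same response, had an interval of -0.085 to 0.31 (adjusted p 0.34). Of 21 SRF and YAP targets Ankrd1 was the 1 DEG, at 48.3, 47.4, 46.4 and 34.1 CPM against 29.5, 23.8, 25.7 and 23.1 CPM (0.79 ± 0.10), and its level at 37 °C was 47.3 CPM. The count of higher members was 2 without 40 °C 6 h replicate A or B. Ccn2 (CTGF), a YAP target, was lower, at -0.57 ± 0.12, just under the threshold, and became a DEG without 40 °C 6 h replicate A (-0.62) or B (-0.61) or 42.5 °C replicate C (-0.62) or D (-0.73), and with scaling to library size only (-0.63). Of 29 autophagy genes Pik3r4, the regulatory subunit of the VPS34 kinase, was the 1 DEG, at 41.3, 41.6, 43.2 and 40.0 CPM against 66.7, 61.5, 60.9 and 72.3 CPM (-0.65 ± 0.063), with 85.4 CPM at 37 °C.

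Outside these lists, the 12 largest rises and 12 largest falls held genes of other kinds. Kdf1, a keratinocyte differentiation factor, had between 13 and 26 reads in each library at 42.5 °C and 0 in each at 40 °C for 6 h. With a floor of 3 reads per library it was at least 7.48-fold higher at 42.5 °C. Akap5, an anchor of protein kinase A, had 124 reads over the 4 libraries at 42.5 °C and 2 over those at 40 °C for 6 h, giving a ratio of 68.7 after scaling with a 95% interval of 18.6 to 573 from counting error alone. For Lrit3, a membrane protein with leucine-rich repeats, the reads were 203 and 9 (ratio 24.98, 12.9 to 55.4), and for Aldh8a1, an aldehyde dehydrogenase, 73 and 5 (ratio 16.2, 6.62 to 51.3). At 37 °C these 4 genes were at or under 0.154 CPM on average, the level of Lrit3.

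Several of the largest falls were in genes of metabolism and signalling. Osbpl7, an oxysterol-binding protein, stood at 5.27, 4.77, 4.24 and 2.97 CPM at 42.5 °C and 19.99, 21.1, 22.7 and 17.7 CPM at 40 °C for 6 h (-2.24 ± 0.14, adjusted p 2.8e-09), with 18.5 CPM at 37 °C. Amt, of the glycine cleavage system, stood at 2.32, 1.75, 1.54 and 2.42 CPM against 8.72, 9.76, 9.07 and 7.19 CPM (-2.08 ± 0.17). In both the groups lay well apart. Ephb3, an ephrin receptor, was lower, at -2.10 ± 0.21, Cpt1c, a carnitine palmitoyltransferase, at -1.997 ± 0.21, Gnb3, a G protein subunit, at -1.80 ± 0.30 and Lipt1, a lipoyltransferase, at -1.79 ± 0.23. The gene listed as ENSCGRG00001019444 alone was lower, at -2.06 ± 0.18. Against 37 °C, Osbpl7, Amt, Ephb3 and Cpt1c were lower at 42.5 °C, with -2.11, -1.65, -1.77 and -1.57, while at 40 °C for 6 h their log2 fold changes were 0.14, 0.42, 0.33 and 0.43.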

How the data were processed

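The authors counted Illumina reads per gene with CLC Genomics Workbench on the genome CHOK1GS_HDv1 and deposited whole-number counts, not normalized. Reads were demultiplexed with bcl2fastq per the labels. The annotation release, the use of strand and the treatment of reads with several matches are not given in the sources used here. Names were taken from the file; 4423 of 20824 genes were listed by identifier only and 10 were named from the study's own table.

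From the deposited counts, genes were filtered with filterByExpr, scaled by TMM and tested with edgeR 4.0.16 (glmQLFit, glmQLFTest, 2-sided) in R 4.3.3, with Benjamini-Hochberg adjustment over all genes tested. The main fit held the 8 libraries of the comparison. The 37 °C comparisons left out the control library D: the study excluded 1 control without a letter, and D was taken in an earlier analysis of these data by matching gene counts. Intervals of log2 fold changes are 95% from the same fit, and their SE is the log2 fold change over the square root of F. Total counts of 10504192 to 13202441 per library put the level of 3 reads between 0.234 and 0.292 CPM. Intervals of read ratios are exact and cover counting error only.

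DESeq2 1.42.0, other scalings and filters, glmTreat from edgeR, a replicate block and leaving out each library were tried as alternatives. Named were the 12 largest DEGs in each direction that had no overlap between the groups and at least 10 reads in every library of the higher group, together with members of the gene lists. The comparison, its members and the lists were chosen with earlier results of these data known. On simulated counts for 10430 genes of this comparison, the test passed 63 of 67 genes changed 1.5-fold and 67 of 67 changed 2-fold at an adjusted p under 0.05, and called 29 and 67 of them DEGs. The simulation gave every gene the same dispersion and changed no gene of the lowest levels. Its counts therefore do not give the power for genes of low level or wide spread. Libraries are separate biological repeats per the labels.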

Additional observations from a re-analysis of the deposited data

Results flagged for a closer look

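In 13 of 322 groups of 4 libraries examined, 1 library stood apart from the other 3 by more than Dixon's 95% critical value. Chance gives about 1 in 20, so the count was no more than chance gives. Of the 13, 6 were 40 °C 6 h replicate B, and genes measured in the same library are not independent. Replicate B had the highest level of HSPA1A/HSPA1B, at 27.2 CPM against 11.6 to 14.2 in the other 3, of Fos, at 1.19 CPM against 0.313 to 0.44, and of HSPA8, at 578 CPM against 402 to 414. It was also highest for Calr, at 2757 CPM against 2337 to 2386, for Ephb3, at 6.82 CPM against 4.81 to 5.11, and for Gnb3, at 3.89 CPM against 2.38 to 2.60.

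In the other libraries at 40 °C for 6 h, replicate A was highest for Gadd45b, at 16.2 CPM against 11.1 to 11.9, and for Phlda1, at 13.7 CPM against 11.1 to 11.5. Replicate C was highest for Hoxc6, at 5.13 CPM against 3.70 to 3.89, and replicate D was lowest for Dusp10, at 26.3 CPM against 30.1 to 30.5. At 42.5 °C, replicate A was lowest for Id2, at 61.0 CPM against 80.8 to 82.8, replicate C was highest for Birc2, at 8.87 CPM against 7.40 to 7.58, and replicate D was lowest for Ankrd1, at 34.1 CPM against 46.4 to 48.3.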

How the results depend on the processing

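Between the treatments the 860 DEGs became 4904 by adjusted p alone and 260 (93 higher, 167 lower) when glmTreat tested for a fold beyond 1.5. The count lay between 759 (at least 10 reads in every library) and 1074 (no filter, 416 higher and 658 lower) with other filters, was 806 with DESeq2, 904 in 1 fit over all 4 groups and 948 with library size only, and lay between 810 and 922 when each library was left out. At 42.5 °C against 37 °C the 786 DEGs became 4510 by adjusted p alone, 262 with glmTreat, 639 with all 4 controls, 877 (230 higher, 647 lower) with library size only, and 700 to 854 without 1 library. At 40 °C for 6 h against 37 °C the 326 DEGs became 3091 by adjusted p alone, 31 with glmTreat, 218 with all 4 controls, and 248 (without 40 °C 6 h replicate B) to 388 without 1 library.

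Of 3039 values of 161 named genes under the alternatives, 0 reversed a call, 105 lost the call (55 of them with glmTreat) and 28 gained it (21 by adjusted p alone). The sign of uncalled genes such as Ddit3, Hsf2, Eif2ak3 and Hmox1 did change. Beyond those 2 settings, 17 genes changed their call. Of 1596 list counts 149 moved by over 1.5 times. With at least 10 reads in every library 5 HOX genes were lower. With glmTreat 0 ER chaperones, 3 HOX genes and 11 zinc finger genes were lower. The medians of the mitochondrial chaperones, ER stress sensors, cytokine receptors, sphingolipid, S phase and autophagy lists changed sign between scalings.

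The labels share the letters A to D between groups. Deviations of same-letter libraries correlated with a mean r of 0.034 (-0.017 to 0.090, 4 pairs) and those of other pairs with -0.011 (12 pairs), so the letters were not taken as pairing. With the replicate block there were 858 DEGs between the treatments, of which 850 were among the 860 (Sdf2l1 lost its call at -0.57 and Ccn2 gained one at -0.59), 717 at 42.5 °C and 333 at 40 °C for 6 h against 37 °C.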
